A study of Homo sapiens with 2 samples.

Results

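Adhesion molecules and other leukocyte surface proteins decide which cells a lymphocyte touches, which complement fragments it binds and whether a phagocyte or natural killer cell attacks it. The genes ITGAX, ALCAM, CD47, F11R, CR1, IFITM1 and CLEC2D, which encode such proteins, were followed in a table of TCF4 binding sites. All rows whose gene name was one of these 7 were taken, which gave 17 of the 662 listed peaks and 7 of the 275 listed genes. The table gives each gene a mark, Up or Down, in a TCF4 signature, but no header says what Up and Down were measured against. ALCAM, F11R, CD47 and CLEC2D were marked Up, and ITGAX, CR1 and IFITM1 were marked Down. Thus 4 of the 7 genes were Up, against 83.3% of all listed genes.

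The assay was ChIP-seq, in which DNA bound by a protein is precipitated with an antibody and sequenced. The cells were SU-DHL-2, a human lymphoma line of the ABC-DLBCL type, that is, large B-cell lymphoma that resembles activated B cells. Both libraries came from SU-DHL-2 cells that carried tetracycline-inducible TCF4 and received 60 ng/ml doxycycline for 24 hours. One was the TCF4 ChIP and the other was whole-cell input DNA, both labelled as fixed with 1% formaldehyde. The line has no gain of the TCF4 gene, TCF4 was expressed from an exogenous construct, and no library of uninduced cells was used here. With 1 library of each kind there were no replicates and no test. Each fold carries an exact 95% interval (Clopper-Pearson, computed on ChIP reads among all reads of the peak), which covers counting error only. Reads are not independent molecules. The table holds no expression values, so the cell type was not checked against markers.

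TCF4 (E2-2) is an E protein, a basic helix-loop-helix factor that binds the E-box, which has the letters CANNTG. E proteins form dimers and drive gene programs of B cells and plasmacytoid dendritic cells. Their sites can lie at promoters or far from them, so a peak assigned to a gene by proximity need not act on that gene.

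Of the 7 genes, 3 had a peak that the table marks as promoter, namely ALCAM, F11R and IFITM1. These were 3 of 17 peaks, against 5.44% of all listed peaks. A RefSeq promoter (GRCh38.p14) was matched for 5 genes, all except F11R and ITGAX. The 250 bases before the RefSeq start are shown for ALCAM and IFITM1, which have such a peak, and for CR1, whose only peak lay far from its start site. Capitals mark E-boxes.
ALCAM, chr3:105366659-105366908, plus strand: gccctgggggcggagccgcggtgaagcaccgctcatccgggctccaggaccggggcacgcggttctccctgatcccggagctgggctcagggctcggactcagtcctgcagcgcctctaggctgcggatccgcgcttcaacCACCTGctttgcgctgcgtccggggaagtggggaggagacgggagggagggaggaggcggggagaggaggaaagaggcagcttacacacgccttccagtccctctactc
IFITM1, chr11:313790-314039, plus strand: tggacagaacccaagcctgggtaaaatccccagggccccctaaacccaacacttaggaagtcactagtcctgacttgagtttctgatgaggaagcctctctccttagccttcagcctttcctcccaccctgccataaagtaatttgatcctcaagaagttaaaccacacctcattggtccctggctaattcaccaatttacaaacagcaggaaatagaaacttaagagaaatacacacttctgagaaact
CR1, chr1:207495907-207496156, plus strand: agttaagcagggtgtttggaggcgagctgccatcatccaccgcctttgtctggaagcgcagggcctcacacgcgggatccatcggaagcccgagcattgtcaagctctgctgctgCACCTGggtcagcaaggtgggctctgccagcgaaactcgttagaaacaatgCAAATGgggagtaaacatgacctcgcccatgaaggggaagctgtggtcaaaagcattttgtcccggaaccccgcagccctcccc

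CANNTG is its own reverse complement, so 1 strand covers both. ALCAM held 1 E-box, CACCTG, 109 to 104 bases before the start. IFITM1 and CD47 held none in this window. CR1 held 2, CACCTG at 135 to 130 bases and CAAATG at 84 to 79 bases, and CLEC2D held 1, CATTTG at 152 to 147 bases. A match is common, since 61.8% of all 35116 RefSeq promoters of this length held CANNTG. The narrower forms CAGGTG, its reverse complement CACCTG, and CAGCTG were in 28.7%. Of these 5 genes, ALCAM had both an E-box and the promoter mark, IFITM1 had only the mark, CR1 and CLEC2D had only the letters, and CD47 had neither. The marked peaks of ALCAM and IFITM1 lay downstream of the start site, while the letters were read before it. These values therefore cannot show whether E-boxes go with the promoter marks. The table's coordinates are on hg19, so no base was read from under a peak.

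Among the adhesion genes, ALCAM had 7 peaks and the longest reach. ALCAM (CD166) is an immunoglobulin-type adhesion molecule that binds CD6 on T cells. Only 8 of the 275 listed genes had more peaks, and only 3 spread theirs over more than its 769 kb. Of the 7 peaks, 4 lay upstream, 2 within the gene and 1 downstream, and 6 were more than 100 kb away from the start.

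Both of the most distant peaks, on chromosome 3 at 104558828 to 104559220 and 104578090 to 104578562 (hg19), lay 526.5 kb and 507 kb upstream. The first held 62 ChIP and 14 input reads, a 4-fold enrichment (interval 2.21 to 7.73). The second held 86 ChIP and 12 input reads, 6.47-fold (3.52 to 13), the highest value of ALCAM. Their intervals overlap, so counting error does not separate these sites. The next peaks, at 104867421 and 104892075, lay 218 kb and 193 kb upstream. They held 79 and 90 ChIP reads against 18 and 17 input reads, giving 3.96-fold (2.35 to 7.03) and 4.78-fold (2.83 to 8.56). In the GRCh38 gene order the next protein-coding gene before ALCAM is ZPLD1 and the next after it is CBLB, which encodes a ubiquitin ligase.

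At the ALCAM start site the peak at 105085648 to 105086038 held 65 ChIP and 13 input reads, 4.51-fold (2.46 to 8.93). Its edges lay 92 and 482 bp downstream of the start site given in the table, and its apex 306 bp downstream. A peak inside the gene, 116 kb from the start, held 59 ChIP and 12 input reads, 4.44-fold (2.36 to 9.07). The last, 31.6 kb past the transcript end, was the narrowest and thinnest of the 17 peaks, with 200 bp and 33 ChIP against 5 input reads, 5.96-fold (2.31 to 19.6). All 7 ALCAM intervals overlap one another, and the promoter peak was neither the highest nor the lowest. The summed reads of ALCAM, 474 ChIP and 91 input over 2940 bp, gave 4.7-fold (3.75 to 5.95).

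F11R encodes the junctional adhesion molecule JAM-A, found at cell junctions and on leukocytes, where it binds the integrin LFA-1. Its 2 peaks on chromosome 1 lay at opposite ends of a 26.1 kb transcript. The promoter peak, at 160990796 to 160991320, had its centre 75 bp and its apex 57 bp downstream of the start site, the closest centre of the 17 peaks. It spanned 187 bp upstream to 337 bp downstream and so covered the start. It held 122 ChIP and 16 input reads, 6.88-fold (4.07 to 12.4). The other peak, at 160961899 to 160962309 and 2.89 kb past the transcript end, held 74 ChIP and only 8 input reads, 8.35-fold (4.02 to 20.1). It was the highest fold of an Up gene here, but its ChIP signal per length, 1.93, was lower than the 2.49 of the promoter peak. The higher ratio went with an input signal of 0.231 against 0.362, and the 2 intervals overlap.

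ITGAX held the surface peak with the most ChIP reads, the greatest width and the highest fold. It encodes CD11c, an integrin alpha chain that pairs with CD18 to form complement receptor 4, known from dendritic and myeloid cells and from activated B cells. Its 3 peaks on chromosome 16 lay at 10.4% and 80% of the way along a 27.9 kb transcript and 6.32 kb past its end. The middle one, at 31387958 to 31389541, was 1583 bp wide and held 466 ChIP and 43 input reads, 9.78-fold (7.15 to 13.7). It ranked 4 of 662 by ChIP reads and by width, and 38 by fold.

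The other ITGAX peaks were weaker. The one 2.9 kb from the start, at 31368986 to 31369726, held 133 ChIP and 21 input reads, 5.72-fold (3.59 to 9.54). The one past the end, at 31400454 to 31400830, held 68 ChIP and 14 input reads, 4.38-fold (2.44 to 8.44). Both intervals overlap that of the middle peak in part. ITGAX lies in the GRCh38 gene order between ITGAM and ITGAD, which encode 2 other CD18-pairing integrins, and neither name is in the table. The downstream peak is therefore on the side of ITGAD, and its assignment to ITGAX is the authors'.

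CD47 and CLEC2D encode ligands of inhibitory receptors. CD47 is the signal that keeps macrophages from engulfing a cell, through SIRP-alpha. Its single peak, on chromosome 3 at 107758106 to 107758465, lay 51.6 kb from the start and 3.65 kb past the transcript end. It held 54 ChIP and 12 input reads, 4.06-fold (2.15 to 8.34), which ranked 567 of 662. CLEC2D encodes LLT1, a C-type lectin that binds the natural killer receptor CD161, the product of its neighbour KLRB1. The 2 CLEC2D peaks on chromosome 12 were both within the 29.8 kb transcript. The first, 4.64 kb from the start at 9826741 to 9827151, held 95 ChIP and 21 input reads, 4.08-fold (2.53 to 6.9). Its input signal of 0.607 was the highest of the 17 peaks, and its ChIP signal of 2.48 was close to the 2.49 of the F11R promoter peak. The second, 22.7 kb from the start at 9844865 to 9845126, held 37 ChIP and 7 input reads, 4.77-fold (2.1 to 12.7). Thus both ligand genes had folds below the table median, with CLEC2D reaching that ratio from a higher ChIP and a higher input signal at its first peak.

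CR1 (CD35) is a receptor for the complement fragments C3b and C4b and is carried by B cells. It had 1 peak on chromosome 1, at 207788124 to 207788540, 119 kb from the start and 81.6% of the way along a 146 kb transcript. The peak held 97 ChIP and 15 input reads, 5.84-fold (3.37 to 10.8). CR1 is built of long internal repeats and lies beside its near copy CR1L, and how reads that match both were counted was not given in the sources used here, so the placement of this peak is uncertain. The closest listed peak of another gene was that of CD46, 137 kb away. CD46 is a membrane cofactor for the inactivation of C3b and C4b, and it too was marked Down. Its peak at 207925922 to 207926316 lay 0.737 kb from its start and held 71 ChIP and 13 input reads, 4.93-fold (2.71 to 9.71). Among the other 6 genes of interest the closest listed peak of another gene was 604.6 kb or more away, and ALCAM and CD47 were each other's nearest at 2431 kb.

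IFITM1 is an interferon-induced membrane protein that restricts virus entry. Its single peak, on chromosome 11 at 314922 to 315841, held 283 ChIP and 30 input reads, 8.51-fold (5.83 to 12.9). It ranked 19 of 662 by ChIP reads and 25 by width, and its ChIP signal per length, 3.29, was the highest of the 17. The table marks it as promoter, with its centre 1.39 kb from the start, but the gene is short. The transcript is 1.28 kb, and the peak ran from 932 to 1851 bp downstream of the start, with its apex at 1585 bp, past the transcript end. IFITM3, a paralog, is the next protein-coding gene on that side in GRCh38. IFITM genes are similar in sequence, and how the authors treated reads matching several of them is not stated.

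**Figure D1:**
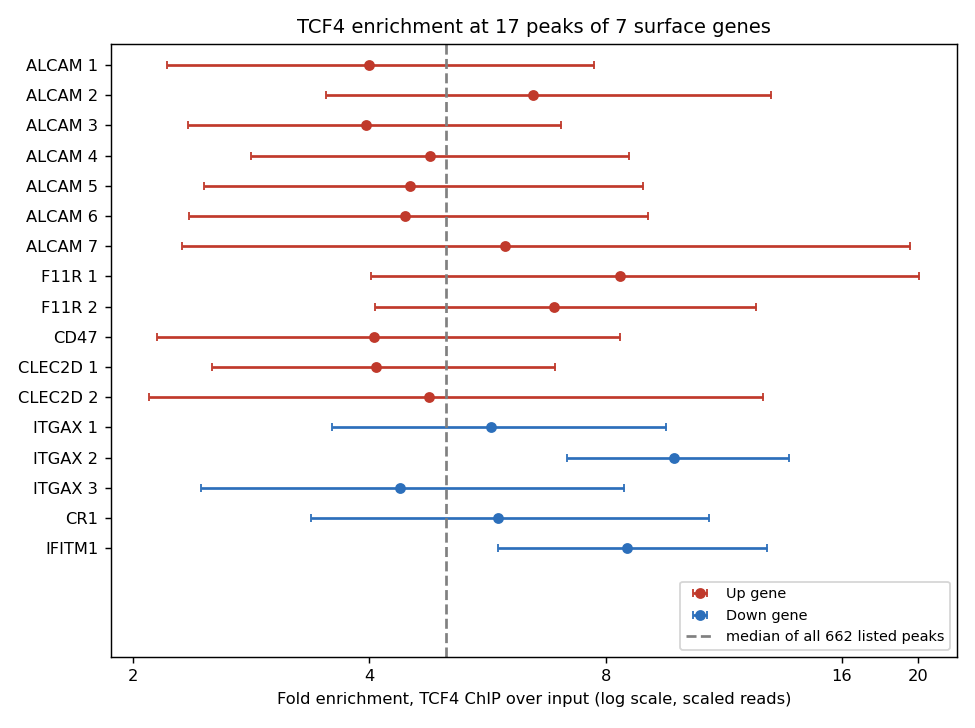
Fold enrichment of TCF4 ChIP over input at the 17 peaks (points, log axis) with exact 95% counting intervals (bars), Up genes above Down genes. Peaks of a gene are numbered by genome position, and the dashed line is the median of all listed peaks, 5.01. The second ITGAX peak, at 9.78, and IFITM1, at 8.51, stand highest, and their intervals lie above the line.

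**Figure D2:**
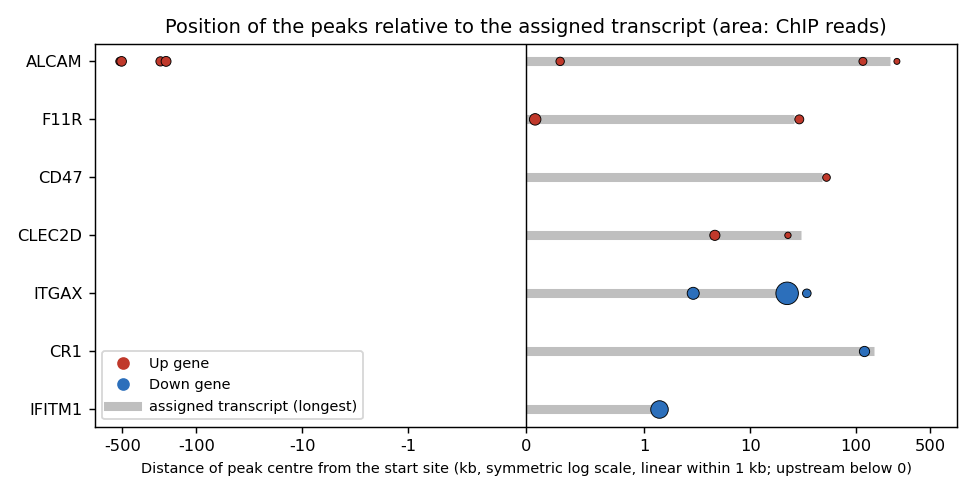
Distance of each peak centre from the start site of the assigned transcript, in kb on a symmetric log axis, with the transcript as a grey bar and point area proportional to ChIP reads. ALCAM was the only one of the 7 genes with upstream peaks, at 193 to 526.5 kb.

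Up and Down surface genes were set side by side in peak number, enrichment, width and distance. The 4 Up genes had 12 peaks, a mean of 3 per gene, and the 3 Down genes had 5 peaks, a mean of 1.67. ALCAM alone accounts for that gap, since without it the Up genes had 5 peaks in 3 genes, also 1.67. Across the whole table the means were 2.38 peaks for Up and 2.52 for Down genes.

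The Up peaks had the lower median enrichment. Their folds ran from 3.96 to 8.35 with a median of 4.64, and those of the Down peaks from 4.38 to 9.78 with a median of 5.84. The ranges overlap, with 4 of 12 Up peaks below every Down peak and 2 of 5 Down peaks, the middle ITGAX peak and IFITM1, above every Up peak. Those 4 Up peaks had unscaled log2 ratios of 2.07 to 2.13, close to 2.01, the lowest in the table. Any weaker peaks of either mark are not listed, so the low end of the folds is bounded by the table. Over all listed peaks the medians were 5.03-fold for Up and 4.96-fold for Down genes. From summed reads, Up surface genes had 856 ChIP and 155 input reads over 4904 bp, 4.99-fold (4.2 to 5.95). Down surface genes had 1047 ChIP and 123 input reads over 4034 bp, 7.68-fold (6.37 to 9.34). Such sums weight the peaks with most reads, and the middle ITGAX peak alone gave 466 of the 1047 ChIP reads, so they are given as values and not as a difference between the marks. The intervals of the Up and Down sums do not overlap, but they cover counting error only. Without ITGAX the Down sum was 7.62-fold, with a wider interval (5.59 to 10.6) from 45 input reads. That interval overlaps that of the Up sum, which does not show the sums to be alike. The sum without ITGAX again rests mostly on 1 peak, since IFITM1 gave 283 of its 380 ChIP reads. The CR1 peak, the rest of that sum, had 5.84-fold (3.37 to 10.8).

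Many of the Up peaks share a chromosome. ALCAM and CD47, with 8 of the 12 Up peaks, lie on chromosome 3, and no Down surface gene does, while F11R (Up) and CR1 (Down) are both on chromosome 1. Their 8 peaks had a median fold of 4.48. The other Up genes differed in their values, with folds of 6.88 and 8.35 at F11R and of 4.08 and 4.77 at CLEC2D. Their summed reads gave 7.37-fold (4.81 to 11.8) at F11R and 4.26-fold (2.81 to 6.65) at CLEC2D. All listed peaks on chromosome 3 had a median of 4.74-fold and an input signal of 0.455, and those elsewhere 5.16-fold and 0.396. The 8 ALCAM and CD47 peaks did not share the higher input, with a median input signal of 0.396, and their median ChIP signal was 1.76, against 2.18 for all listed peaks on chromosome 3. Mark and chromosome cannot be told apart for ALCAM and CD47.

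Down genes held the widest surface peaks. Up peaks were 200 to 684 bp wide, with a median of 401 bp, and Down peaks 376 to 1583 bp, with a median of 740 bp. The 3 widest Down peaks, 2 of ITGAX and that of IFITM1, were wider than every Up peak, while the other 2 lay among them. Over all listed peaks the medians were 422 bp for Up and 439.5 bp for Down genes. ChIP reads followed the same order, with 33 to 122 at Up peaks (median 69.5) and 68 to 466 at Down peaks (median 133). Signal per length was also higher at Down peaks, with a median ChIP signal of 1.77 at Up and 2.49 at Down peaks. Width and reads went together. Spearman's rho between them was 0.94 over the 17 peaks and 0.84 over the 662, given as a description of peaks from 1 library.

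Distance differed in median, again through ALCAM. Up peaks lay 0.075 to 526.5 kb from the start, with a median of 83.6 kb, and Down peaks 1.39 to 119 kb, with a median of 22.3 kb. Without ALCAM the Up median was 22.7 kb, and without chromosomes 3 and 18 it was 13.7 kb. Over 100 kb away lay 6 of 12 Up peaks, all of ALCAM, and 1 of 5 Down peaks, that of CR1. Together these were 7 of 17, against 20.4% of all listed peaks. Within the transcript were 5 of 12 Up and 3 of 5 Down peaks, against 52% of all listed peaks.

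**Figure D3:**
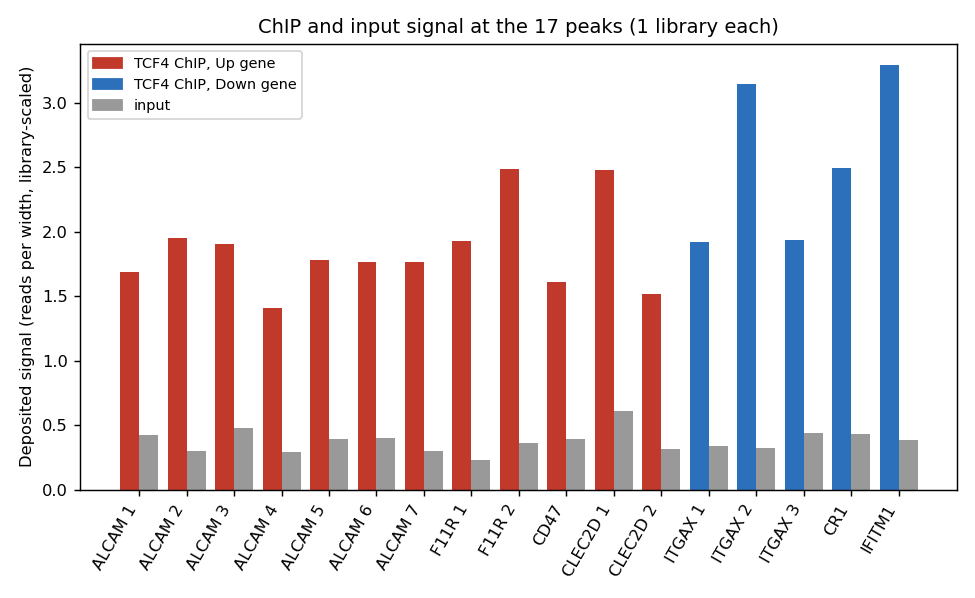
Deposited signal (reads per peak width, scaled by library) in the TCF4 ChIP (coloured bars, Up genes left of Down genes) and in the input (grey bars) at each of the 17 peaks, 1 library each. ChIP signal ran from 1.41 at ALCAM peak 4 to 3.29 at IFITM1, and input signal from 0.231 at the first F11R peak to 0.607 at the first CLEC2D peak.

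The authors' deposited table also holds a local −log10 p, and its header does not say what each peak was compared with. This local value ordered the surface peaks differently from the ratio to input. The ALCAM peak at 104867421 had a local value of 9.81, rank 3 of 662 in the authors' deposited table, with a fold that ranked 603. The next ALCAM peak, at 104892075, had 7.92 and rank 10. By contrast the middle ITGAX peak had 4.02 and rank 340, and the downstream F11R peak, with the highest fold of the Up peaks, had 3.01 and rank 512. Spearman's rho between fold and local value was −0.53 over the 17 peaks and 0.06 over all 662, peaks that share 2 libraries. By local value a distal ALCAM peak stood first among the 17, and by fold the middle ITGAX peak did.

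**Figure D4:**
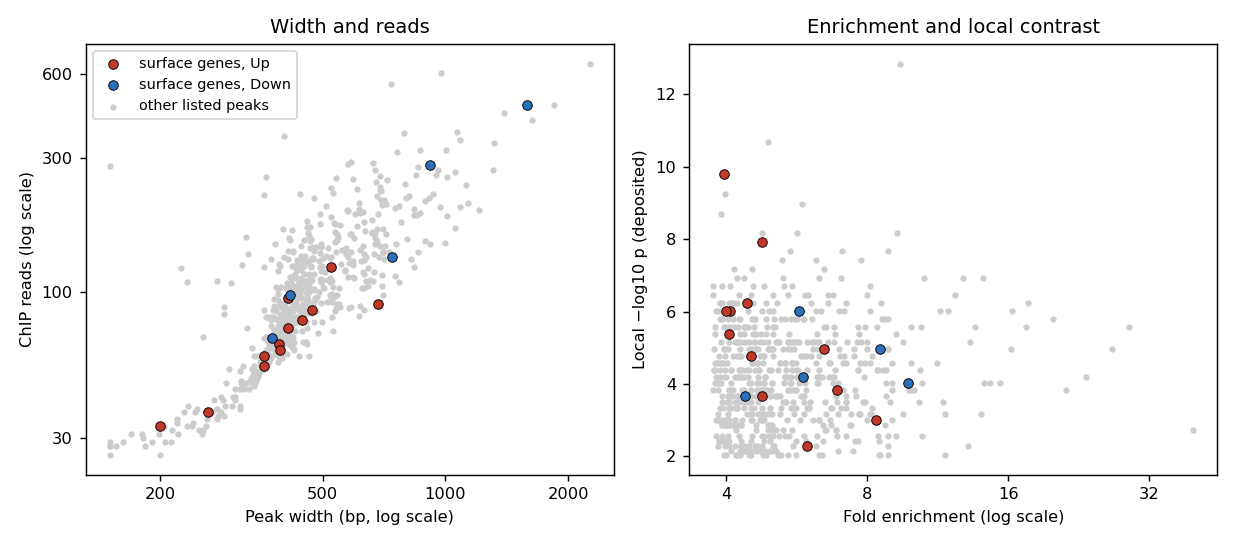
Left, peak width in bp against ChIP reads (both log axes), and right, fold enrichment (log axis) against the authors' local −log10 p, for the surface gene peaks (red Up, blue Down) and the other listed peaks (grey). The widest Down peaks sit at the upper right on the left, and 2 ALCAM peaks, at 9.81 and 7.92, stand above the rest of the surface peaks on the right.

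The medians of the surface peaks were set beside those of the table. Their median fold was 4.78, against 5.01 for all listed peaks, their median width 410 bp against 424 bp, and their median distance 34.2 kb against 39.7 kb. The distance depended on which genes were kept. It was 83.6 kb without ITGAX, against 40.0 kb for the listed peaks left, and 22.5 kb without ALCAM, against 39.5 kb. Peaks of 1 gene are not independent, and ALCAM gave 7 of the 17. The 17 peaks held 1903 ChIP and 278 input reads, with 33 to 466 ChIP reads (median 79) and 5 to 43 input reads (median 14) per peak.

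Lists of related genes showed which relatives were in the table. Over all lists, 8 of 168 genes had a listed peak, against 1.31% of protein-coding genes, but 7 of these 8 are the genes described here. Of the 161 other genes only CD46 had one. Among integrins it was 1 of 26 (ITGAX), among immunoglobulin-type adhesion molecules 2 of 36 (ALCAM and F11R), and among complement receptors and regulators 3 of 12 (CR1, CD46 and ITGAX). The CD47-SIRP axis had 1 of 5, the IFITM family 1 of 5, and the natural killer complex lectins 1 of 21 (CLEC2D). B-cell surface molecules had 1 of 30 (CR1), and the 22 chemokine receptors and 7 selectins and ligands had 0. The table holds only signature genes with a peak, so a gene that is not in it may lack either.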

How the data were processed

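TCF4 ChIP-seq peaks of 1 ChIP and 1 input library were used. The authors deposited, per the file headers, whole-number read counts per peak, a normalized signal, log2 ratios and −log10 p-values. The input is the column headed IC. The table lists only peaks related to signature genes, and its lowest log2 ratio is 2.01 and its lowest local −log10 p is 2.03. BWA, GATK and hg19 are named in the submitters' processing notes, and the peak caller was not given in the sources used here. Their deposited signal was reads over width and over 1 constant per library (93.5 M ChIP and 84.4 M input reads if RPKM). These constants scaled every fold enrichment here, which has no pseudocount. Positions relative to the gene are the authors'; start sites were recovered from their distances, and all 17 accessions named the same gene as the name column. Depth per peak limits precision, as the intervals show. Intervals were computed with scipy 1.17.1 under Python 3.11.15 (numpy 2.4.6, pandas 2.3.3) and tested on simulated data. The simulated reads were independent, so dependence between reads was not tested. Promoters are from RefSeq (GRCh38.p14), used with the gene order for names and letters only, never with hg19 coordinates. Alternatives changed the pseudocount, the scaling, the peaks kept and the weight of each gene. Every peak of the 7 genes, listed relatives with a peak and nearest peaks of other genes were named by rule. The genes, the relative lists and the comparisons were chosen with earlier results of these data known. Whether coordinates count from 0 or 1 is not stated. The result of 1 gene list is not reported here.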

Additional observations from a re-analysis of the deposited data

How the results depend on the processing

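Adding 1 read to each library or leaving out the library scaling kept all 17 folds inside their counting intervals. Leaving out the scaling moves every fold by the same factor, which is too small to leave any of these intervals. Adding 1 read is also a small change beside them, so neither outcome tests the folds. The median of the Up minus that of the Down peaks, −0.33 on the log2 fold scale, kept its sign under all 10 alternatives run. Among these, merging peaks under 1 kb apart affected none of the 17 peaks, so it could not change this difference or those below. The fold difference was −0.027 without chromosomes 3 and 18 and −0.95 with the peak of most reads per gene. It was −0.60 without ITGAX and −0.079 among the stronger 50% of peaks by scaled ratio. The width difference of −339 bp kept its sign under all 9 and was −510 bp with each gene's mean. The distance difference of 61.3 kb turned to −10.2 kb among the stronger 50% by reads and to −8.63 kb without chromosomes 3 and 18. It was 29.4 kb at a local −log10 p of 3 or more, 13.3 kb by gene means, 5.85 kb by each gene's peak of most reads, 23.5 kb without ITGAX, 0.40 kb without ALCAM and 122.8 kb among the stronger 50% by ratio. The difference of 1.33 peaks per gene turned to −0.33 among the stronger 50% by reads, where 2 Up and 4 Down peaks were left. It was 0.33 without chromosomes 3 and 18, 0.67 among the stronger 50% by ratio and 0 without ALCAM. Several settings leave fewer peaks or fewer genes, and the cause of these changes was not tested. Ranking by reads also favours wide peaks, since width and reads went together. Among the stronger 50% by reads, the surface peaks had a median width of 632 bp, against 520 bp for all peaks kept. Their median distance from the start was 3.77 kb, against 35.65 kb. These medians rest on 2 Up and 4 Down peaks, none of them of ALCAM. Keeping the stronger 50% by ratio raises the ratio by construction. There the surface peaks had a median of 2.74 (log2 fold), against 2.69 for all peaks kept. Without ITGAX the median distance of the surface peaks was 83.6 kb, and without ALCAM it was 22.5 kb. Of the genes on the lists, 6 had a peak within 10 kb of the start and 8 at a local −log10 p of 3 or more, against 8 in all. In each count only CD46 was not one of the genes described here. The share of all protein-coding genes was not computed at these 2 settings. The narrower E-box forms were in 2 of the 5 promoters, against 3 for CANNTG. Leaving out ALCAM and ranking by the scaled ratio were chosen after seeing the data. No paired analysis was possible because there is 1 library of each kind.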
